A study of Drosophila melanogaster with 2 samples.

Results

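The Polycomb group genes described here are 10 named genes of Drosophila melanogaster, namely ph-p, ph-d, Pc, Psc, Su(z)2, E(z), Su(z)12, esc, pho and Sfmbt, out of 13945 protein-coding genes on the assembled chromosome arms other than Y. All 10 were found by symbol in the Ensembl annotation. The question was where CG17612, the protein under study, gave binding peaks along these genes in embryos. The assay was ChIP-seq (chromatin immunoprecipitation, then sequencing), in which an antibody pulls down a protein with the DNA it contacts and sites of enrichment are called as peaks. The samples were 2 biological replicates of whole embryos aged 0 to 24 hours from the strain CG17612-GFP, whose insertion yields CG17612 tagged with a green fluorescent protein (eGFP), and the pull-down used an antibody against GFP. The antibody field of the labels names CG17612 itself. Both replicates belong to 1 group, neither the promoter that drives the fusion nor the sex of the embryos is given in the labels, and a control experiment named there was not analysed here. A peak in whole embryos averages over all tissues and over the whole of embryogenesis, so a site bound in few cells cannot be told apart from a site bound weakly in many.

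Polycomb group proteins keep developmental genes such as the Hox genes silent in cells where they are not to be used, and they do so through complexes that modify and compact chromatin. Polycomb repressive complex 1 (PRC1) holds the chromodomain protein Pc, the SAM-domain protein Polyhomeotic (made from the neighbouring duplicate genes ph-p and ph-d) and the RING-finger protein Psc or its relative Su(z)2. Polycomb repressive complex 2 (PRC2) methylates histone H3 through its catalytic subunit E(z), together with Su(z)12 and the WD-repeat protein esc. The PhoRC complex joins the DNA-binding protein pho to Sfmbt and brings the others to Polycomb response elements. In this report these genes are the places where CG17612 was looked for, and nothing was measured about their own proteins.

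In the list that the authors made from both replicates under the conservative setting, 5 of the 10 genes had at least 1 peak between 2 kb upstream of the gene and its 3′ end: ph-p with 4 peaks, E(z) with 2, and ph-d, Psc and Sfmbt with 1 each. Pc, Su(z)2, Su(z)12, esc and pho had none. Over all 13945 protein-coding genes, 15.5% had a peak in the same window, and among the 5529 genes whose window length lay within the range of the 10 genes (4202 to 16998 bp) 18.1% did. The peak's summit, its highest point, lay within 500 bp of an annotated transcript start in 3 of the 10 genes (ph-p, E(z) and Sfmbt), against 8.71% of all protein-coding genes. With 10 genes chosen by name and 1 group of samples, these counts are a description and were not tested. The genes were also chosen with earlier results of these data known. The lists are thresholded on the irreproducible discovery rate (IDR), which measures how well the rank of a peak is repeated between 2 sets of reads, and a peak was kept at an IDR of at most 0.01.

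The less strict pooled list, which was made from the same pooled reads, gave the same 5 genes and the same 3 start-site genes, beside 16.5% and 9.19% of all genes. In the list called on replicate 1 alone, 5 of the 10 genes had a window peak and 2 (E(z) and Sfmbt) a start-site peak, beside 10.9% and 6.57% of all genes. In the list of replicate 2 alone, 4 of the 10 had a window peak and 2 (ph-p and E(z)) a start-site peak, beside 10.5% and 5.88%. The gene missing from the window count in replicate 2 was Sfmbt. In replicate 1 the thresholded ph-p summits lay 509 and 507 bp from a start, just past the limit, and a ph-p peak 56 bp from a start (score 48.8) did not pass the IDR threshold, so ph-p was not in the start-site count.

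ph-p carried by far the highest peak of the 10 genes. The strongest of its 4 peaks, at X:2137232-2137467 (dm6), had a score of 783, which is the authors' signal value for the peak on a scale that is not stated, and it ranked 9 among the 2094 conservative peaks. Scores of the same site in the replicates' own lists were 406 in replicate 1 and 374 in replicate 2, and the summits there were 13 bp apart. The summit lay in an intron of ph-p, 1023 bp downstream of the gene's 5′ end and 493 bp upstream of a start site inside the gene. Beside it in the list stood the peaks at CG5611 (812) and PNPase (780), both within 500 bp of a start of those genes. Of 11071 genes with any ranked peak at a start site, 9 (0.0813%) had a higher one than ph-p. That figure rests on the 500 bp limit: in replicate 1, where this summit was 509 bp from a start, the highest start-site peak of ph-p scored 48.8 and 952 of 10971 genes (8.68%) had a higher one, while in replicate 2 it was 9 of 10082 (0.0893%).

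The second ph-p peak, at X:2137740-2137912, scored 379 (rank 77) and lay in the 5′ UTR, 495 bp downstream of the gene's 5′ end, with 179 and 206 in replicates 1 and 2 and summits 2 bp apart. Both of these peaks passed the threshold in each replicate, and the scores of the 2 sites did not overlap between replicates. Peak 3, at X:2136461-2136784, scored 103 and had its summit 1 bp from the start site at position 2136622, with 48.8 and 42.4 in the replicates. Peak 4, at X:2135181-2135504, scored 76.5 in an intron 1279 bp downstream of that start, with 44.2 and 35.3. Peaks 3 and 4 passed the threshold in the list of replicate 2 and not in that of replicate 1, where their −log10 IDR was 1.846 and 1.781 against a threshold of 2, although their scores were higher in replicate 1. Having at least 4 peaks in the window was uncommon: 35 of 13945 genes (0.251%) did.

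**Figure D1:**
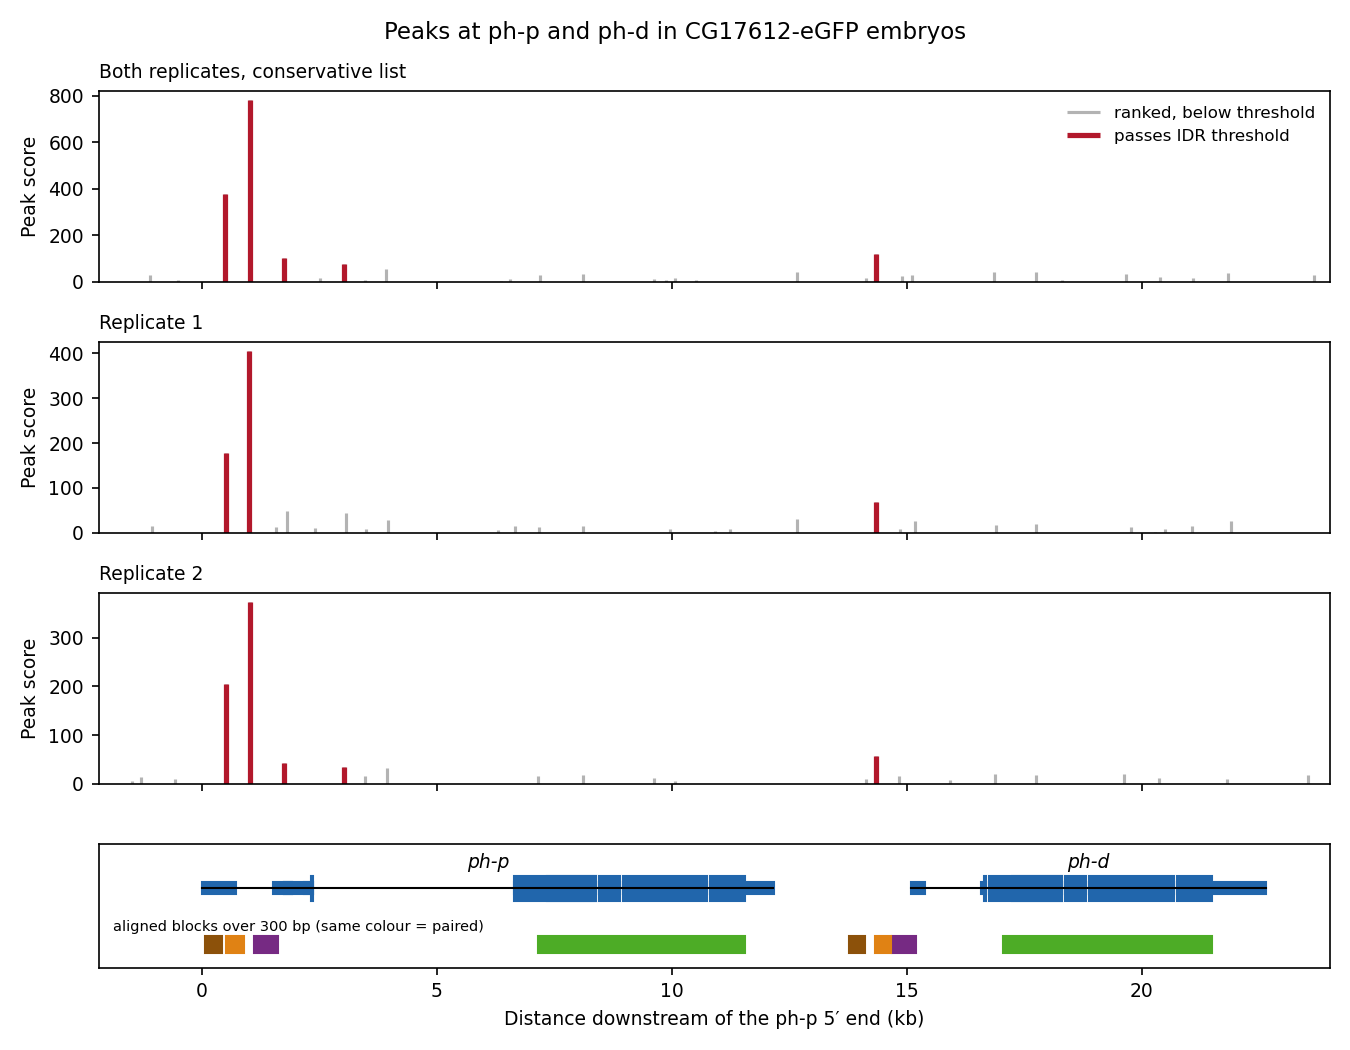
Peak scores along ph-p and ph-d, with distance downstream of the ph-p 5′ end in kb on the horizontal axis and the authors' score on each vertical axis (the scale differs between panels); red bars are peaks that passed the IDR threshold, grey bars ranked peaks that did not, and the bottom panel shows exons (thin), coding exons (thick) and aligned blocks over 300 bp shared by the genes, paired by colour. The 2 highest bars, at 495 and 1023 bp, stand at the 5′ part of ph-p in each panel, while ph-d has 1 red bar upstream of its start.

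The sequence of the strongest ph-p peak is shown whole because its summit falls in DNA with no aligned counterpart in ph-d, followed by the summit of ph-p peak 4 with 50 bp on each side. Both are read from the plus strand of the Release 6 genome. None of the 7 motifs searched (given further on) matched in either, so both are in lower case throughout.
ph-p, X:2137232-2137467: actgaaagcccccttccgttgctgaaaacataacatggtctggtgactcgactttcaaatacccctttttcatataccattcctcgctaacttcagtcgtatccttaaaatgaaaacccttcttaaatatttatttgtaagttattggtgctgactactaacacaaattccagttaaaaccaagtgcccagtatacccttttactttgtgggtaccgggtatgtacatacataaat
ph-p, X:2135293-2135393: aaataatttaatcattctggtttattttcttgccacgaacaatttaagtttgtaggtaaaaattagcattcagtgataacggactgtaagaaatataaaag

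ph-d, the distal copy, had 1 peak, at X:2123872-2124195, with a score of 119 (rank 749 of 2094). The replicates gave 68.0 and 58.0 with summits 1 bp apart, and both passed the threshold. The summit lay 748 bp upstream of the ph-d 5′ end, in no annotated gene. The replicate scores of this peak were below those of both strong ph-p peaks and above those of ph-p peaks 3 and 4. No ph-d peak lay at a start site, where the highest ranked peak scored 41.0 with a −log10 IDR of 0.4162.

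Because ph-p and ph-d are tandem duplicates, their windows were aligned with each other. There were 8 alignments, which covered 40.5% of the ph-p window, and the longest, over 4480 bp of the gene bodies, was 92.0% identical. Near the 5′ ends, 1 block of 387 bp at 70.5% identity contained the ph-d summit, and the base of ph-p aligned with it (X:2137837) lay inside the second ph-p peak, 39 bp from that peak's own summit. That ph-p summit itself lay 21 bp past the end of the block, where no ph-d base is aligned. The ph-d summit thus aligned with a base inside the second ph-p peak, with scores of 119 in ph-d against 379 in ph-p (68.0 and 58.0 against 179 and 206 in the replicates). The summit of the strongest ph-p peak also fell between blocks, in a stretch of 208 bp of ph-p (X:2137265-2137472) that has 15 bp in its place in ph-d, and 203 of the 236 bp of that peak lay in the stretch. Every word of 36 bases in each of the 5 peaks of the 2 genes occurred once in the genome, against 72.4% and 73.6% of the words in the whole ph-p and ph-d windows. The sources used here do not say how reads with more than 1 match were handled, and the placing of reads between the copies was not tested.

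The ph-d summit with 50 bp on each side is shown because it holds the base aligned with a position inside the second ph-p peak. Capitals mark bases identical to ph-p in the alignment, which spans the first 69 bases here with 52 identical positions (75.4%), and the last 32 bases are not in the alignment.
ph-d, X:2123984-2124084: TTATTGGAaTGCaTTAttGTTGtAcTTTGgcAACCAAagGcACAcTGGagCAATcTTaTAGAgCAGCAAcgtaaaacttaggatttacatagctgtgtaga

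E(z), the histone methyltransferase of PRC2, had the highest peak of the PRC2 genes. The peak at 3L:10637914-10638237 scored 165 (rank 418), with its summit in the 5′ UTR 54 bp downstream of the gene's 5′ end. The replicates gave 102 and 65.6, both past the threshold, with summits 8 bp apart. The start of Cnep1r2 also lay within 500 bp of the summit, so the same peak counts at a start site of both genes. A second E(z) peak, at 3L:10637252-10637575, scored 64.0 (rank 1917) in a coding exon, 465 bp downstream of the other E(z) start. It had 40.1 and 27.8 in the replicates, passed the threshold in neither of their own lists, and its summits were 98 bp apart.

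Sfmbt, the partner of pho in PhoRC, had 1 peak, at 2L:13176695-13177018, with a score of 88.3 (rank 1246). The summit was 72 bp upstream of the Sfmbt start, within CG43925, and starts of CG43925 and CG5439 lay within 500 bp as well. The replicates gave 53.6 and 37.0, and the peak passed in replicate 1 only. In replicate 2 its −log10 IDR was 1.427, and the replicate summits were 79 bp apart.

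The second E(z) summit and the Sfmbt summit, each with 50 bp on either side, are shown because they hold motif matches. Both windows are centred on the summit in the pooled list. The replicate summits lay 98 bp apart at this E(z) peak and 79 bp apart at Sfmbt, so a window centred on one of them may not hold the match. No motif search was run around the replicates' own summits. Capitals mark GCCAT, the core bound by Pho, in E(z), and TATCGATA, the DNA replication-related element (DRE), in Sfmbt.
E(z), 3L:10637364-10637464: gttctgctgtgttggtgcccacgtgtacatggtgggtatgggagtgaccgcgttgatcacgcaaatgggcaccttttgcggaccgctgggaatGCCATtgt
Sfmbt, 2L:13176807-13176907: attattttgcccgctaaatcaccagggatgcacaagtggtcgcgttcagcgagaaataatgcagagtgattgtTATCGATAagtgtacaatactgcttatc

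Exact matches of 7 motifs were looked for on both strands, from 50 bp before to 50 bp after each of the 9 summits. They were the Pho core GCCAT, the sequence GAGAG read by the product of Trl, the BEAF-32 site CGATA, the DRE, TATCGATA, which contains the BEAF-32 site, the Su(Hw) core TGCATA, motif 1, which reads GGTCACAC, and the Zelda site CAGGTA. Matches were found in 3 of the 9 peaks. GCCAT was in 1 of 9, the second E(z) peak, against 15.9% of all 2042 conservative peaks on the arms and 16.8% of 19252 windows of the same length at protein-coding start sites. CGATA was in 2 of 9, the second ph-p peak and the Sfmbt peak, against 14.4% of all peaks and 23.6% of start windows. TATCGATA was in the Sfmbt peak alone, against 1.13% and 4.48%. The other 4 motifs were in none of the 9, and their shares in all peaks were 9.7% for GAGAG, 10.9% for TGCATA, 0.539% for GGTCACAC and 1.22% for CAGGTA, against 12.7%, 3.42%, 4.68% and 2.0% of start windows. These counts grow with the window: with 100 bp on each side of the summit GCCAT was in 3 of the 9 and GAGAG in 1, and in the whole peaks they were in 4 and 3. The shares above hold for 50 bp on each side only. None was computed for the wider windows, so these larger counts have no background to be read against. A match is only a match of letters, and a window without one says nothing of the factor.

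The 10 words of 8 bases that were most over-represented at the summits of the other 2033 conservative peaks, led by AGTATGCA (2.85% of summits against 0.246% of flanks 300 bp away), were in none of the 9 peaks. Each word was in only 1.97% to 6.64% of those other summits, so its absence from 9 peaks says little. Base composition varied among the 9. The GC content of the same windows was 30.7% and 24.8% at the first and second ph-p peaks, 54.5% at peak 3 and 26.7% at peak 4. It was 37.6% at ph-d, 24.8% at Psc, 33.7% and 56.4% at E(z) and 41.6% at Sfmbt. All conservative peaks had a median of 34.7%, and start sites one of 43.6%. The first ph-p peak thus lay between the 25th percentile of all peaks (27.7%) and their median, the second below that percentile, and ph-p peak 3, 1 bp from a start, was at 54.5%, above the 75th percentile of start sites (50.5%).

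Psc, a RING-finger subunit of PRC1, had 1 peak, at 2R:12975444-12975767, with a score of 158 (rank 445). The summit lay in an intron, 5052 bp downstream of the nearest Psc start. The replicates gave 66.4 and 89.9, both past the threshold, with summits 2 bp apart. It was the only peak of the 9 besides the second ph-p peak whose score was higher in replicate 2. At the Psc start sites the highest ranked peak scored 30.7, beside a median of 32.3 over all genes with a ranked peak there. The replicates fell on different sides, with 28.0 beside a median of 20.4 in replicate 1 and 12.2 beside 16.2 in replicate 2.

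Su(z)2, the neighbour and relative of Psc, had no thresholded peak. Its highest ranked peak in the window scored 45.1, 618 bp from a start site, with a −log10 IDR of 0.4059. The replicates' highest window peaks scored 30.1 and 31.4 but lay at different places, 540 and 7154 bp from a start. The 15506 bp between Psc and Su(z)2 held 1 conservative peak, at 2R:12985122-12985297, which scored 360 with 185 and 176 in the replicates. It lay 158 bp from the start of the non-coding RNA gene lncRNA:CR44339, 2.13 kb outside the Psc window and 9.2 kb outside that of Su(z)2, and it was therefore counted for neither gene.

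**Figure D2:**
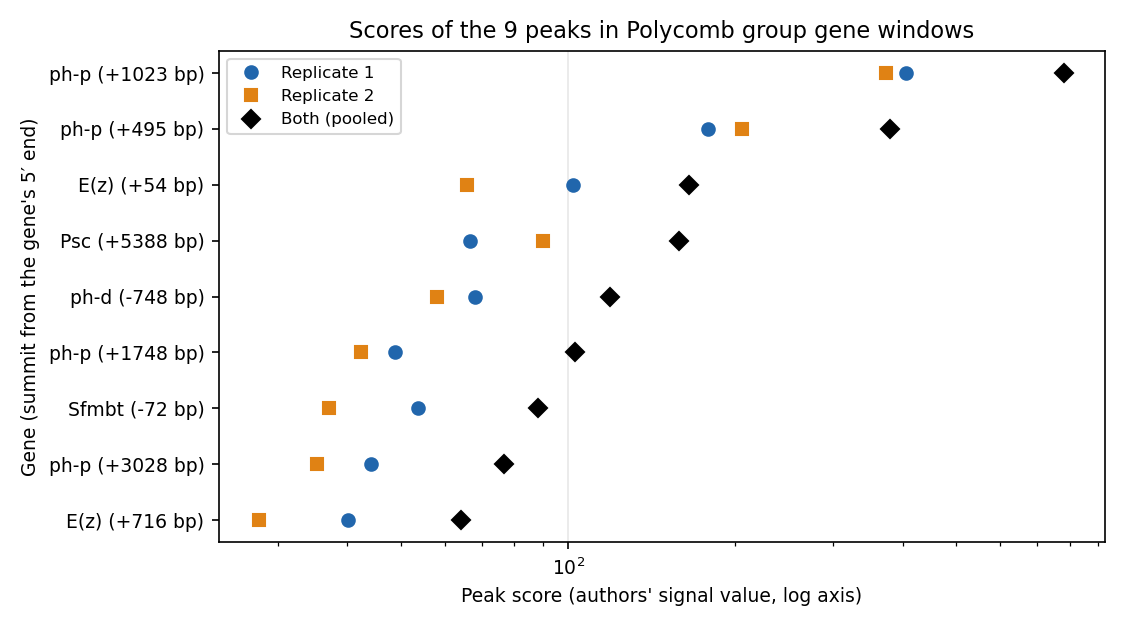
Scores of the 9 conservative peaks in Polycomb group gene windows on a log axis, for replicate 1 (circles), replicate 2 (squares) and the pooled list (diamonds), with the summit's distance from the gene's 5′ end in bp beside the gene name. The scores of both strong ph-p peaks lie above those of all other sites in both replicates, while the E(z), Psc and ph-d peaks overlap.

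By pooled score the genes ran ph-p (783), E(z) (165), Psc (158), ph-d (119) and Sfmbt (88.3). ph-p stood apart in both replicates. E(z) and Psc did not differ beyond their replicates, which gave 102 and 65.6 at E(z) and 66.4 and 89.9 at Psc, and changed places between replicates. The ph-d range of 58.0 to 68.0 overlapped both of these, and the Sfmbt values of 37.0 and 53.6 lay below all of them. Over the 2020 conservative peaks with a score in both replicates, the ratio of replicate 1 to replicate 2 had a median of 1.1 and ran between 0.661 and 2.04 from its 5th to its 95th percentile. The ratios of the 9 peaks, from 0.739 at Psc to 1.55 at the first E(z) peak, were all within that span. The peaks next to these genes in the list were, for E(z), that at CG2004 (165), for Psc, those near mir-9378 (159) and lncRNA:CR45541 (158), for ph-d, those nearest to lncRNA:CR44619 and CG6149 (both 119), and for Sfmbt, that nearest to MESR3 (88.3).

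Among the genes without a thresholded peak, Su(z)12, the PRC2 subunit, was the nearest miss in the pooled lists. Its highest ranked peak, 71 bp from the start site, scored 63.7 with a −log10 IDR of 1.64, just outside the threshold, while the second E(z) peak, with a score of 64.0 and a −log10 IDR of 2.054, was just inside. Of the 12969 genes with a ranked window peak in the conservative list, 20.0% had a higher one. In the replicates the Su(z)12 site scored 30.6 and 27.2, with a −log10 IDR of 0.4128 and 0.1226. Another gene without a thresholded peak had a higher window score in each replicate, Pc (35.4) in replicate 1 and Su(z)2 (31.4) in replicate 2. A second ranked peak of Su(z)12, 601 bp upstream of the gene, scored 61.2 with a −log10 IDR of 1.096. A Psc peak of similar score (60.7) had a −log10 IDR of 0.1769. In the less strict ranked list these 2 peaks stood the other way round, at 0.6425 for the Su(z)12 peak and 1.158 for the Psc peak, so their order by IDR was not stable.

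Pc, whose chromodomain binds methylated histone H3, had its highest ranked peak 374 bp from its start site, with a score of 49.996 and a −log10 IDR of 0.5974. The replicates gave 35.4 and 16.1 there. The nearest conservative peak, with a score of 267, lay 1.39 kb beyond the 3′ end of Pc, 67 bp from a start of CG11309. The Pc window had 0.432 ranked peaks per kb, the lowest of the 9 genes that had any, and all 6 lay in the 4.76 kb at the upstream end of the window. In that stretch 99.9% of words of 36 bases occurred once in the genome, against 1.06% in the remaining 9.12 kb. The part of the repeated stretch in the low number of peaks was not tested.

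esc, the PRC2 subunit that binds methylated H3, had its highest ranked peak 1878 bp from its start site with a score of 47.3, and the replicates gave 29.3 and 16.8. Its −log10 IDR was 0.6793. At its start site the highest ranked peak scored 27.4, lower than in 62.3% of the 11071 genes with one. The highest window scores of Su(z)2 (45.1), esc (47.3) and Pc (49.996) were close to the median over all genes, 44.5, and within the span from the 25th to the 75th percentile, 35.5 to 57.8. In replicate 1 all 3 were within that list's span of 21.8 to 35.6. In replicate 2, with a span of 17.3 to 28.9, Pc (16.1) and esc (16.8) were below it and Su(z)2 (31.4) above it.

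pho, the DNA-binding subunit of PhoRC, was alone among the 10 genes in having no ranked peak in its 11.16 kb window in any of the 4 ranked lists. The ranked lists are long (118490 to 149071 peaks), and 7.0% of all protein-coding genes had no ranked peak in the window of the conservative one. pho lies on chromosome 4, where 69 of 80 genes had none in that list and 116 ranked peaks were called in all. The nearest ranked peaks were 12.9 kb away on one side (score 5.29) and 95.5 kb away on the other (score 137). Words of 36 bases that occur once in the genome made up 92.8% of the pho window. Why no ranked peak was called there was not tested.

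**Figure D3:**
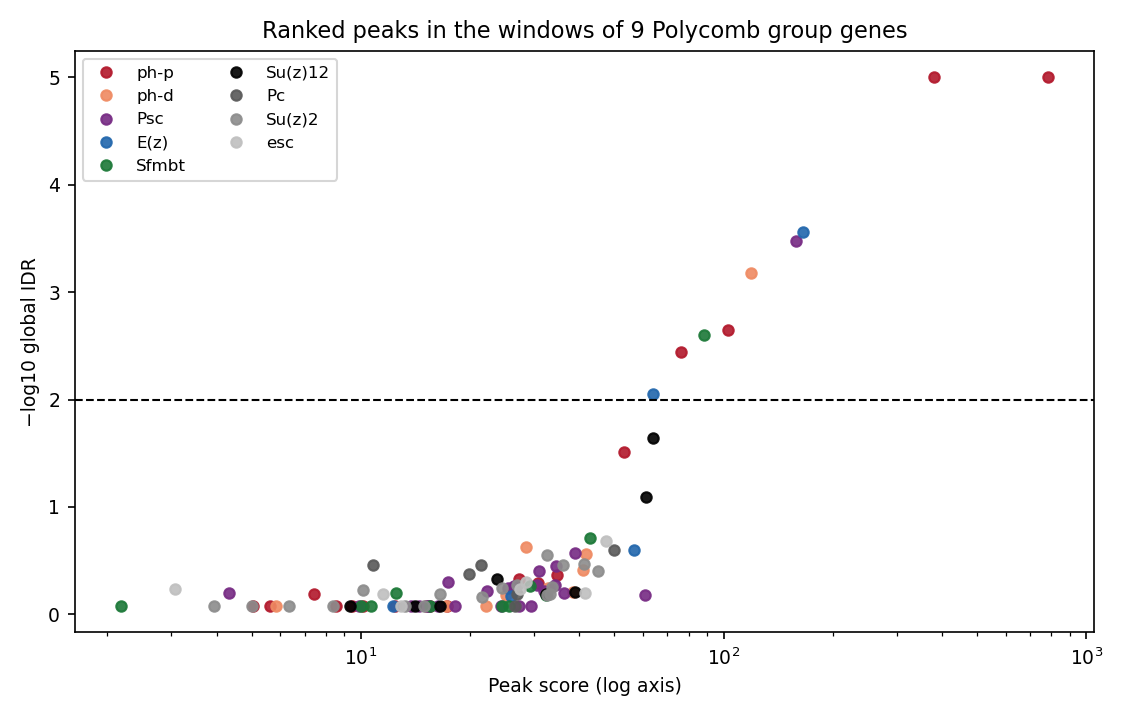
All ranked peaks in the windows of the 9 Polycomb group genes that had any, in the conservative ranked list, with the score on a log axis against −log10 of the global IDR; the dashed line is the threshold of 2 and colours mark genes. The 9 points on or above the line belong to ph-p, ph-d, Psc, E(z) and Sfmbt, and the Su(z)12 points at 1.64 and 1.096 are among the nearest below it.

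The windows of the 10 genes held 108 ranked peaks in the conservative list, 103 in replicate 1 and 83 in replicate 2. Their density had a median of 1.18 per kb (from 0.0 at pho to 1.67 at esc), against 1.33 per kb for all protein-coding genes, 1.1 against 1.2 in replicate 1 and 0.93 against 1.04 in replicate 2. The median density of ranked peaks, thresholded ones included, was thus somewhat below that of all protein-coding genes in each of these lists. Genes were not matched for window length here. esc, with the highest density, had no thresholded peak.

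**Figure D4:**
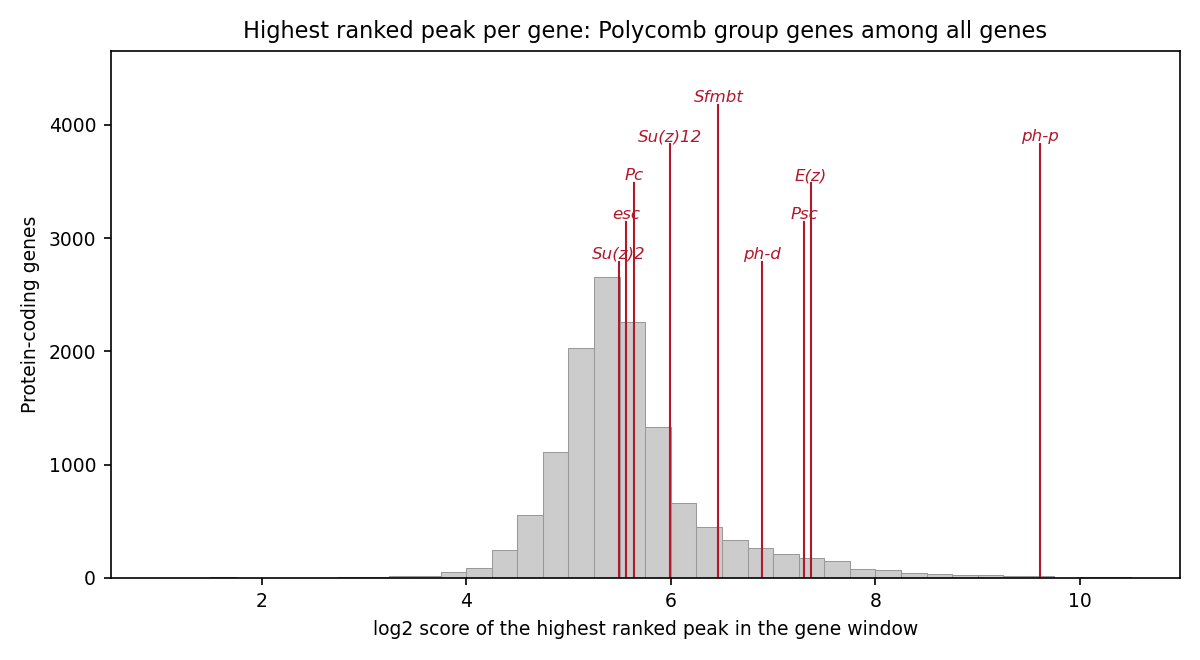
Number of protein-coding genes by the log2 score of the highest ranked peak in the gene window (conservative ranked list, bins of 0.25), with a line for each Polycomb group gene that had one. Su(z)2, esc and Pc stand in the main body of the distribution, near its median of 44.5 on the linear scale, and ph-p stands in the far right tail.

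Other genes of Polycomb repression, 25 in all and each found in the annotation, were examined in the same way. A conservative summit lay at a start site in 2 of the 25: Trl, which encodes GAGA factor (168, 126 bp from the start, 74.2 and 91.7 in the replicates), and lolal, a BTB-domain partner of it (105, 104 bp, 57.8 and 45.4). That compares with 3 of the 10 genes above and 8.71% of all genes. Replicate 1 and replicate 2 alone gave 2 and 1, beside 6.57% and 5.88% of all genes. Against the same 8.71% of all genes, 3 of 16 Trithorax group genes, which act against Polycomb repression, had a start-site summit in the conservative list. These were brm, the ATPase of the Brahma chromatin remodelling complex (488, with 282 and 205 in the replicates), fs(1)h, a BET-family bromodomain gene (99.5, with 53.4 and 37.3), and skd, a subunit of the Mediator kinase module (93.2). skd had 68.3 in replicate 1 and no overlapping ranked peak in replicate 2. Each of these 3 summits also lay within 500 bp of a start of another gene, Arl1 at brm, mys at fs(1)h and Pdss2 at skd. The lists of replicates 1 and 2 alone gave 3 and 1 of the 16 genes, beside 6.57% and 5.88% of all genes.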

How the data were processed

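The data were 8 peak lists on the dm6 build, per the labels: a thresholded and a ranked list for each of the 2 replicates and for both together under a conservative and a less strict setting. Peak scores are signal values that the authors deposited on an unstated scale, and the −log10 of the global IDR was also deposited by the authors, in the ranked lists. The sources used here name no aligner or peak caller. No read counts are in the lists, so depth is unknown and no interval or test was computed. 4 columns of scores per sample that name no replicate were not used. For replicate scores, the highest peak overlapping by at least 1 bp in each replicate's own ranked list was taken.

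Genes and start sites came from Ensembl release 115 (BDGP 6.54), sequences from the RefSeq Release 6 genome. Windows ran from 2 kb upstream of the gene to its 3′ end, and motifs were exact matches on both strands. ph-p and ph-d were aligned with blastn 2.17.0 (E-value limit 1e-05). Counting was checked on planted peaks. All 10 genes are named, as are start-site genes of the other lists, genes with a start near a summit and the peaks next in rank. The genes and lists were chosen with earlier results of these data known. Alternatives were the other lists, the higher-scoring peaks, other distances and other motif windows. Sequence that overlaps an annotated UTR is not shown.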

Additional observations from a re-analysis of the deposited data

How the results depend on the processing

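Among the 10 Polycomb group genes, the number with a window peak was between 4 and 5, the number with a start-site peak between 2 and 4, and the number of window peaks between 6 and 10 under every alternative run. The share of all protein-coding genes used as background moved as well. With a window peak it was 16.5% in the less strict list, 9.23% with the higher-scoring 1047 peaks, 14.0% and 20.2% with 1 and 5 kb upstream, and 10.5% to 10.9% when a replicate was left out. With a start-site peak it was 9.19% in the less strict list, 5.42% with the higher-scoring peaks, 6.86% and 10.6% at 250 and 1000 bp, 9.48% for any overlap, and 5.88% to 6.57% when a replicate was left out. The other Polycomb genes with a start-site peak numbered 5 at 1000 bp and 4 for any overlap, and 1 to 2 without a replicate, and the Trithorax group genes 1 to 3 without a replicate. Member peaks with a motif match numbered 5 both in 100 bp on each side of the summit and in the whole peak, both of which search more bases (GCCAT in 3 and 4 of 9, GAGAG in 1 and 3). No share of all peaks was computed for these wider windows. In all, 47 of 69 alternatives were classed as leaving the value about where it was and 22 as moving it. The classes were looser for counts than for shares. A fall from 9 to 6 window peaks or from 3 to 2 start-site genes was classed as unchanged, and a share of 16.5% against 15.5% as moved. Counts, shares and ranks have no sign, so none could be reversed. No paired analysis was possible because the 2 samples form 1 group. Depth is unknown, so a missing peak says only that none was called.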

Other observations

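Several genes of Polycomb and Trithorax function carried conservative peaks away from their start sites, and they are named here after their values were seen. Of the 25 other Polycomb genes, 8 had a peak in the window, against 15.5% of all protein-coding genes. Each replicate's own list gave 6, against 10.9% of all genes in replicate 1 and 10.5% in replicate 2. Longer windows can hold more peaks, and no share among genes of matching window length was computed for these genes. The strongest were at Adf1, which encodes a DNA-binding transcription factor (744, with 361 and 397 in replicates 1 and 2, 783 bp from a start), at Trl (592, with 298 and 299, 1533 bp from a start) and at phol, the relative of pho (501, with 228 and 261). The phol summit lay 1506 bp from a phol start and within 500 bp of starts of CG3437 and CG3552. Of the 16 Trithorax group genes, 6 had a window peak, against the same 15.5%. The lists of replicates 1 and 2 gave 4 and 3, against the same 10.9% and 10.5%. No share for matching window length was computed here either. osa, a subunit of the Brahma complex, had peaks of 422 (197 and 229) and 282 (144 and 138) that lay 13933 and 17786 bp from its nearest start.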
